A study of Mus musculus with 24 samples.

Results

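Hepatocytes of zone 6 of the mouse liver lobule were compared with those of the neighbouring, less periportal zone 5 on miRNA arrays. The comparison took 6 of the 24 arrays in the series, 3 of each zone, with the zone read from the sample title and the arrays paired by mouse. Hepatocytes of 3 male C57BL/6J mice aged 3 months, kept on a reverse light-dark cycle with free access to food, had been sorted into 8 populations from zone 1, the most pericentral, to zone 8, the most periportal. No transgene or treatment is named, so by the labels the groups differ in their sort gates alone, and each array holds the RNA of 50000 cells of 1 zone of 1 mouse. The gates were set on E-cadherin, a surface protein of periportal hepatocytes, and on CD73, one of pericentral hepatocytes, among viable tetraploid cells free of CD45 and CD31. A zone is therefore a sort window and not a measured distance, and diploid hepatocytes were not analysed here. The array does not measure the mRNAs of the proteins behind the gates, so the zone labels were not checked against them. Each mouse has a slide of its own, so mouse and slide are the same factor. Both zones lie in row 2 of every slide, zone 5 in column 1 and zone 6 in column 2, so zone and slide column cannot be told apart within this pair.

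A miRNA is a short RNA that guides the silencing complex to mRNAs, mostly through pairing of its seed, which lies near its 5′ end, and lowers the output of those mRNAs. Hepatocytes carry a stable set dominated by miR-122, and some miRNAs with roles in glucose and lipid handling are also made there. The liver lobule runs from the portal tract, where blood rich in oxygen enters, to the central vein. Gluconeogenesis and urea synthesis are strongest near the portal tract, while glutamine synthesis and much of xenobiotic metabolism lie near the central vein.

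Of the 8 miRNAs higher in zone 6 at an unadjusted p under 0.05, 7 are shown here as mature sequences. They are written 5′ to 3′ with the seed (bases 2 to 8) in capitals. The other is miR-7666-5p. Of the 8, miR-149-5p alone passed the adjusted threshold used below. Sequences and positions are from RefSeq on GRCm38.p6.
miR-149-5p: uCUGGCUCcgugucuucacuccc
miR-137-3p: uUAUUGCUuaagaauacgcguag
miR-31-5p: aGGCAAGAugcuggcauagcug
miR-31-3p: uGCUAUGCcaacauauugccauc
miR-802-5p: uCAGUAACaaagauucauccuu
miR-33-5p: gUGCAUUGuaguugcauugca
miR-27a-3p: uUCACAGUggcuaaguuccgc

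The mature miR-149-5p lies at chr1:92850381-92850403 on the plus strand, within the bounds of Gpc1. Mature miR-137-3p lies at chr3:118433901-118433923 on the plus strand. The arms of miR-31 come from 1 hairpin on the minus strand, miR-31-5p at chr4:88910614-88910635 and miR-31-3p at chr4:88910577-88910599, within the bounds of the non-coding gene Gm49890. For miR-802-5p the position is chr16:93369737-93369758 on the plus strand. Mature miR-33-5p lies at chr15:82198127-82198147 within the bounds of Srebf2, the gene of a regulator of cholesterol synthesis. Mature miR-27a-3p lies at chr8:84208727-84208747 and has the seed UCACAGU in common with miR-27b-3p. Whether a miRNA lies in an exon or an intron of these genes was not analysed here.

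The next 3 miRNAs, which had lower values in zone 6, are shown for contrast in base composition. Among lower miRNAs detected on all 6 arrays at an unadjusted p under 0.05 in limma's fit, they are those with a RefSeq sequence. Their adjusted p-values were 0.72 to 0.75.
miR-7011-5p: aGGAGGAUgggagagggaggugu
miR-1982-5p: uUGGGAGGguccuggggagg
miR-8101: gGCGAGCGgagccggaggagcc

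They lie at chr3:88440924-88440946 within Sema4a, chr10:80828808-80828827 within Oaz1 and chr11:102230103-102230124 within Hdac5. Lower at an unadjusted p under 0.05, but not detected on all 6 arrays, were also miR-7221-5p, miR-150-3p and miR-5110. These were 38.1%, 45.5% and 56% G.

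On the 6 arrays the summed miRNA signal lay between 62723 and 116111 intensity units, and 252 to 368 of 1881 miRNAs were called detected. The zone 5 arrays of mice 1, 2 and 3 detected 252, 278 and 368 miRNAs, and the zone 6 arrays 259, 325 and 334. The zone 5 array of mouse 3 thus detected the most, and miRNAs near the limit of detection depend on it. The 220 miRNAs detected on all 6 arrays correlated at 0.986, 0.991 and 0.995 between the zones of mice 1, 2 and 3, and at 0.951 to 0.984 between mice (Pearson, log2, across miRNAs of 1 pair of arrays). With 3 arrays a zone, precision is limited throughout. Values below are log2 of the total gene signal, scaled per array to the 75th percentile of commonly detected miRNAs, and a miRNA called undetected sits at a floor of 0.17. Differences are zone 6 minus zone 5 in log2, with the standard error of limma's fit with mouse as a block.

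One miRNA of 339 tested rose in zone 6 at an adjusted p under 0.05, which is 0.295%, and 0 fell. At an unadjusted p under 0.05, 8 miRNAs were higher (2.36%) and 11 lower (3.24%), and the median difference over all 339 was -0.04. The same fit called 0 miRNAs for zone 7 against zone 6, with 3 higher (0.885%) and 1 lower (0.295%) at an unadjusted p under 0.05, and 0 for zone 8 against zone 7, with 20 higher (5.9%) and 0 lower. For zone 5 against zone 4, which lie in different slide rows, it called 7 higher (2.06%) and 1 lower (0.295%).

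The miRNA that rose was miR-149-5p. Its values in zone 5 were 0.17 in mouse 1, 0.17 in mouse 2 and 1.34 in mouse 3, where it was detected in mouse 3 alone. In zone 6 it was detected in all 3 mice, at 1.84, 1.52 and 1.81. All 3 zone 6 arrays lay above all 3 zone 5 arrays, and the smallest step, 0.47, was that of mouse 3. The difference was 1.17 ± 0.20 (SE, n = 3 mice), with a 95% interval of 0.74 to 1.596 and an adjusted p of 0.0092 (limma, Benjamini-Hochberg). On the linear scale this is 2.24-fold, a size that depends on the floor, since it stands in for the signal in mice 1 and 2. These are weak signals: the deposited values in zone 6 were 3.00, 3.23 and 4.46 intensity units, against 3.39 on the zone 5 array of mouse 3. None of the 12 arrays in zones 1 to 4 detected it, so its fitted spread includes 12 values at the floor, while every array in zones 7 and 8 did. The call was lost in 9 of the 14 other settings that tested it. With the 6 arrays alone the adjusted p was 0.493, without scaling 0.19, and with undetected values set at each array's own lowest detected signal 0.264, at a difference of 0.95. Without mouse 1 it was 1, and without mouse 2 0.269. The other arm of the hairpin, miR-149-3p, was detected on none of the 6 arrays.

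**Figure D1:**
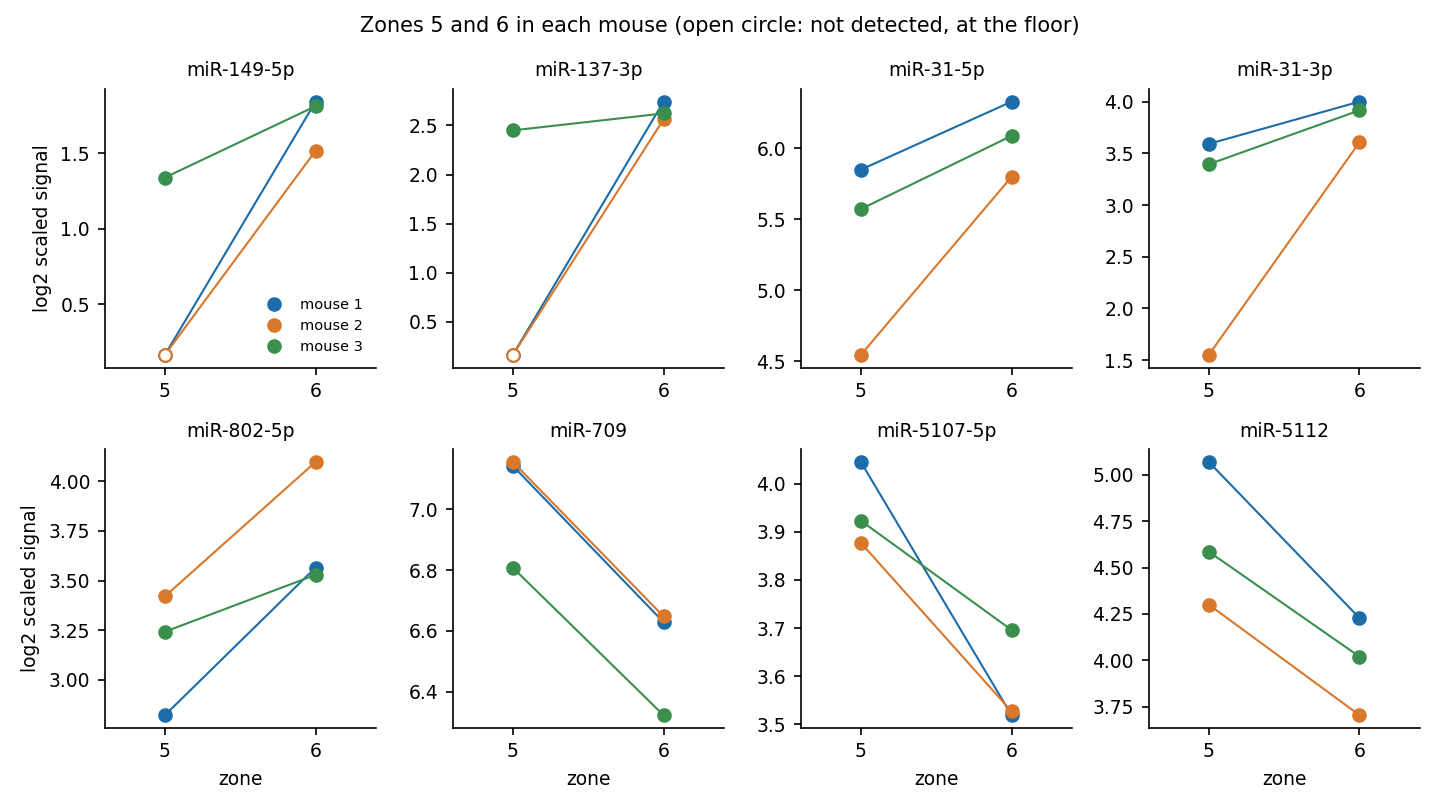
Log2 scaled signal of 8 miRNAs in zones 5 and 6, with 1 line per mouse and open circles for arrays on which the miRNA was not detected. For miR-149-5p and miR-137-3p the zone 5 values of mice 1 and 2 are at the floor and that of mouse 3 is near its zone 6 value, while miR-709 steps down by a like amount in every mouse.

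A like pattern of detection was seen for miR-137-3p, which is best known for its roles in neurons. It was at the floor in zone 5 of mice 1 and 2 and at 2.45 in mouse 3, and stood at 2.74, 2.56 and 2.62 in zone 6. The zones did not overlap, but in mouse 3 the step was 0.17 against 2.58 and 2.40 in mice 1 and 2. The difference of 1.71 ± 0.38 had an adjusted p of 0.0623 and did not pass the threshold. With quantile normalization the adjusted p was 0.0303. Without mouse 3 the adjusted p was 0.001, for both miR-137-3p and miR-149-5p, with differences of 2.49 and 1.51. All their values in zones 1 to 5 are then at the floor and do not vary, so this p rests on the spread in zones 6 to 8. As with miR-149-5p, no array in zones 1 to 4 detected miR-137-3p and every array in zones 6 to 8 did.

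Detection calls differed between the zones in both directions. No miRNA was detected on all 3 arrays of 1 zone and on 0 of the other. In zone 6, 64 miRNAs were detected on more arrays than in zone 5, and 50 on fewer. Of these, 8 went from 1 array to 3, namely miR-137-3p, miR-149-5p, miR-27a-3p, miR-29c-5p, miR-33-5p, miR-6392-3p, miR-7226-5p and miR-7666-5p, and the zone 5 array that detected them was that of mouse 3 for every member. In the other direction 0 went from 3 arrays to 1. The arrays of mouse 3 detected 368 miRNAs in zone 5 and 334 in zone 6, and the part of array sensitivity in these counts was not tested. From 0 arrays in zone 5 to 2 in zone 6 went miR-5620-3p, which was on too few arrays to be tested, and from 2 arrays in zone 5 to 0 in zone 6 went 3 miRNAs, miR-3070-3p, miR-6956-5p and miR-7221-5p.

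Among these, miR-33-5p, which is encoded within Srebf2 and represses the cholesterol exporter Abca1, was at the floor in zone 5 of mice 1 and 2 and at 1.19 in mouse 3. Its zone 6 values were 1.46, 0.99 and 1.22, which overlapped with the zone 5 array of mouse 3. The difference was 0.72 ± 0.27 with an adjusted p of 0.537. In mouse 3 it was detected in every zone, and in mice 1 and 2 zone 6 was the most pericentral zone in which it was. In mouse 1 it was undetected again in zones 7 and 8. Its neighbour in that set, miR-27a-3p, a regulator of lipid metabolism and fat cell formation, read 0.17, 0.17 and 1.58 in zone 5 and 1.82, 1.13 and 1.58 in zone 6, at 0.87 ± 0.37 and an adjusted p of 0.721. The brighter miR-27b-3p, with the same seed, read 5.50, 5.68 and 5.56 in zone 5 and 5.46, 5.73 and 5.52 in zone 6, a difference of -0.01 ± 0.19. Whether the steps of these 2 miRNAs, which share a seed, differ was not tested.

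The arms of miR-31, a miRNA linked to epithelial growth and hypoxia signalling, were both higher in zone 6 in all 3 mice but did not pass the adjusted threshold. In zone 5 miR-31-5p read 5.85, 4.55 and 5.57, and in zone 6 it read 6.33, 5.80 and 6.09. The zone 6 array of mouse 2 lay below the zone 5 array of mouse 1, so the groups overlapped. The difference was 0.75 ± 0.21 (1.68-fold), with an adjusted p of 0.24. The passenger arm miR-31-3p read 3.59, 1.55 and 3.39 in zone 5 and 4.00, 3.61 and 3.92 in zone 6, without overlap, at 0.99 ± 0.31 and an adjusted p of 0.325. In both arms the step was largest in mouse 2, at 1.25 and 2.06, against 0.48 and 0.41 in mouse 1. Zones 7 and 8 held miR-31-5p at 6.22 to 6.45, and zone 7 differed from zone 6 by 0.26 ± 0.21.

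Levels of miR-802-5p, which in the liver is known for impairing insulin signalling in obesity, were 2.82, 3.42 and 3.24 in zone 5 and 3.57, 4.10 and 3.53 in zone 6. The zones did not overlap. The difference was 0.57 ± 0.17 (1.48-fold), with an adjusted p of 0.24. Its steps in mice 1, 2 and 3 were 0.74, 0.68 and 0.29. All 12 arrays in zones 5 to 8 detected miR-802-5p and the arms of miR-31, and 0 of the 12 in zones 1 to 4 did. Those zones fill the other slide row, so the larger change before zone 5 cannot be told apart from slide row. The step from zone 5 to zone 6 lies within a row.

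**Figure D2:**
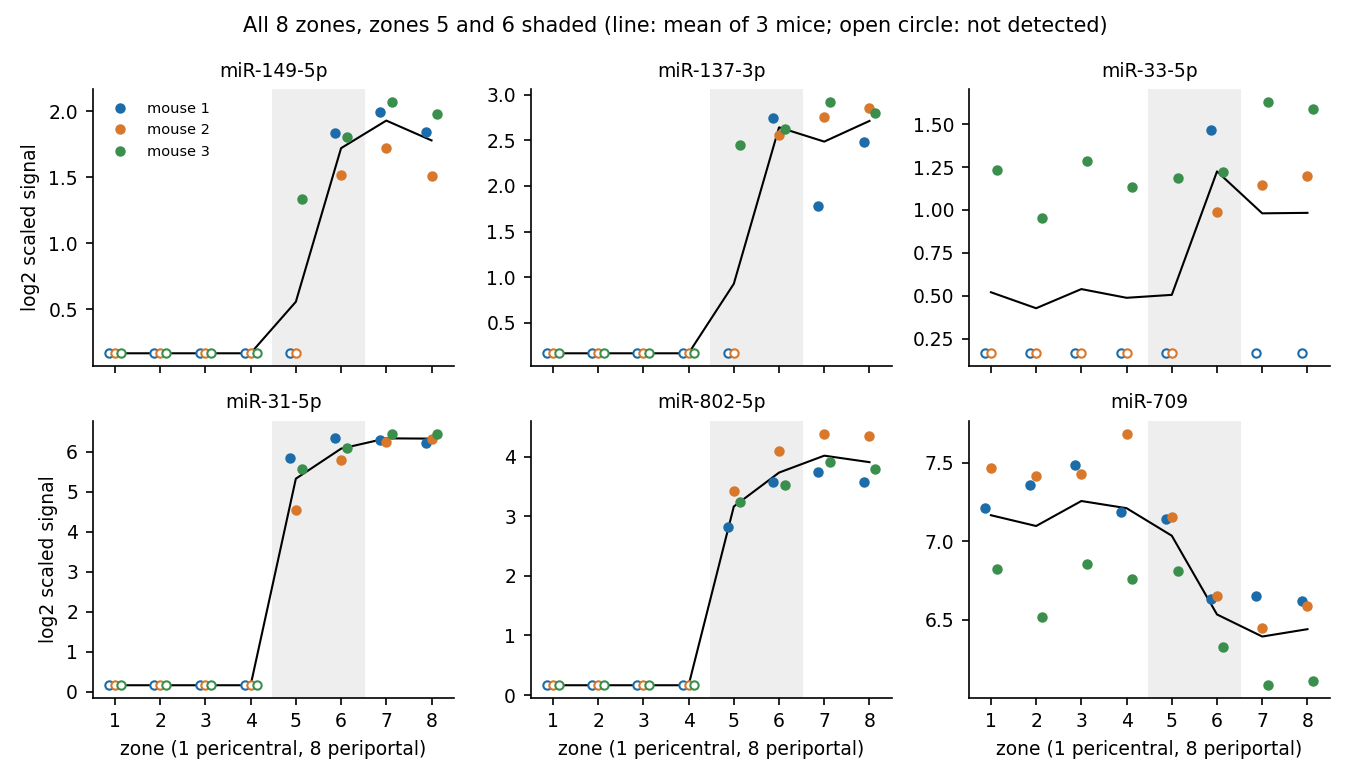
Log2 scaled signal in all 8 zones for 6 miRNAs, with points for mice, a line for the mean of 3 mice and open circles where the miRNA was not detected; zones 5 and 6 are shaded. Values of miR-149-5p and miR-137-3p leave the floor in zone 5 of mouse 3 and in zone 6 of mice 1 and 2, and miR-31-5p and miR-802-5p leave it in zone 5.

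The related miR-125 and miR-99 families had smaller differences of the same sign. The seed CCCUGAG is shared by miR-125a-5p and miR-125b-5p, and ACCCGUA by miR-99a-5p and miR-100-5p. In zone 5 miR-125b-5p read 7.43, 7.15 and 7.18 and in zone 6 7.64, 7.36 and 7.45, a difference of 0.23 ± 0.16 with an adjusted p of 0.789. Steps in the 3 mice were 0.21, 0.20 and 0.28, and the zones overlapped. For miR-99a-5p they were 0.24, 0.23 and 0.28, for miR-125a-5p 0.13, 0.39 and 0.31. Values of miR-100-5p, 2.78, 2.60 and 2.62 in zone 5, lay below its 2.92, 2.85 and 2.95 in zone 6 without overlap, at an adjusted p of 0.904. In the list of miR-125, miR-99, miR-100, miR-31 and miR-802, 8 of 10 members were tested and 0 were called. All 8 were detected on all 6 arrays and were higher in all 3 mice, and 3 had an unadjusted p under 0.05. Of the 220 miRNAs detected on all 6 arrays, 15% were higher in all 3 mice and 33.6% lower. Over the 339 tested these shares were 12.4% and 22.7%. The median difference of the 8 was 0.26 against -0.04 over all tested. All 8 lay above 0 also without scaling and with scaling to the summed signal, and 7 with quantile normalization. The list was drawn up with earlier results of these arrays known, so its direction is not independent evidence.

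**Figure D3:**
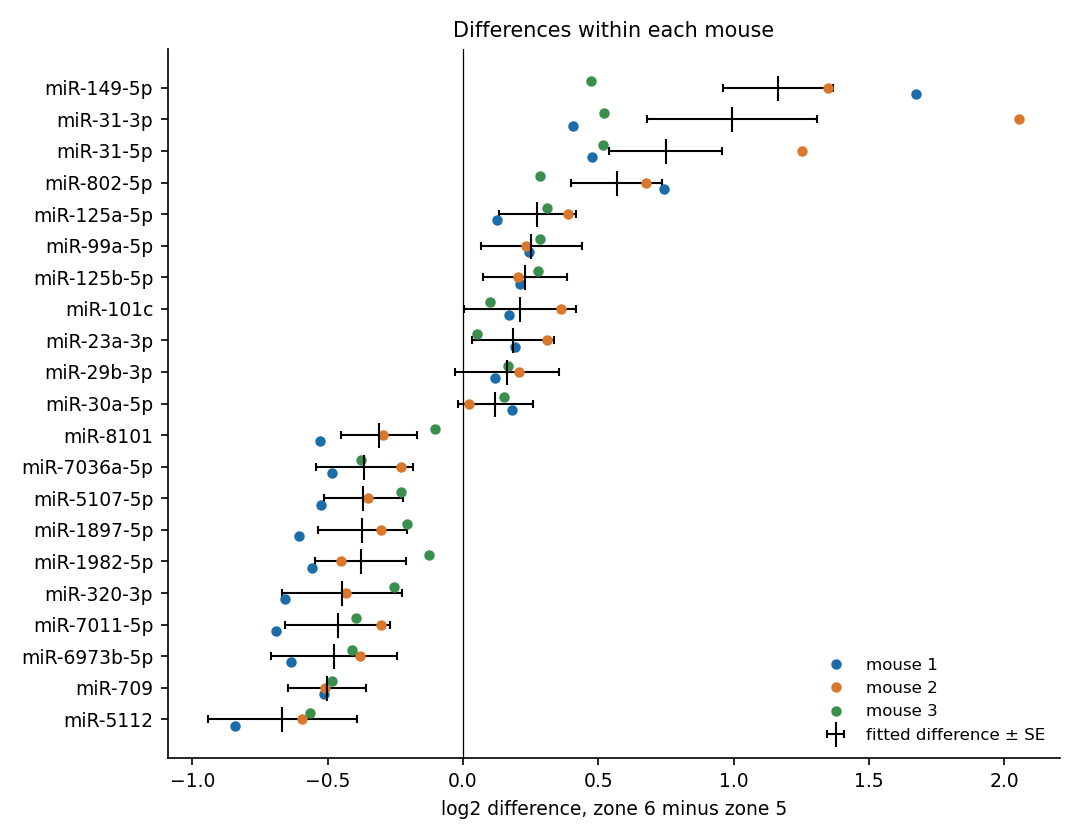
Differences between zones 6 and 5 within each mouse, in log2 of the scaled signal, with 1 coloured point per mouse. Shown are miR-149-5p and miRNAs detected on every zone 5 and zone 6 array with 1 sign in every mouse. Among the latter, those with the smallest p in either direction were taken, so their shared sign is fixed by the choice. This choice leaves out miR-137-3p and other miRNAs not detected on every array of the pair. The points of miR-709 lie between -0.51 and -0.48, whereas those of miR-31-3p run from 0.41 to 2.06.

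No miRNA was lower at an adjusted p under 0.05, in the main setting or in any other. Among lower miRNAs detected on all 6 arrays the smallest p belonged to miR-709, a mouse miRNA reported in the nucleus. Its zone 5 values were 7.14, 7.16 and 6.81 and its zone 6 values 6.63, 6.65 and 6.32. All zone 6 arrays lay below all zone 5 arrays, and the steps of the mice, -0.51, -0.51 and -0.48, were nearly equal after scaling. The deposited signals were 110.3, 108.3 and 150.1 in zone 5 and 83.1, 113.2 and 101.9 in zone 6. Before scaling, miR-709 was thus higher in zone 6 in mouse 2. The difference was -0.50 ± 0.14 with an adjusted p of 0.24, and -0.30 without scaling. Further miR-5112 read 5.07, 4.30 and 4.58 in zone 5 and 4.23, 3.71 and 4.02 in zone 6, at -0.67 ± 0.27 and an adjusted p of 0.721. Values of miR-5107-5p were 4.04, 3.88 and 3.92 in zone 5 and 3.52, 3.53 and 3.70 in zone 6, at -0.37 ± 0.15 and an adjusted p of 0.677. Neither of these overlapped between zones after scaling. Before scaling, miR-5107-5p was higher in zone 6 in mouse 2, at 13.0 against 11.2 intensity units.

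The other 7 lower miRNAs that were detected on all 6 arrays with the smallest p and 1 sign in every mouse were miR-7011-5p, miR-1897-5p, miR-1982-5p, miR-8101, miR-6973b-5p, miR-7036a-5p and miR-320-3p. Their differences ran from -0.48 for miR-6973b-5p to -0.31 for miR-8101, with adjusted p-values from 0.721 to 0.78. Before scaling, each of the 7 was lower in zone 6 in mice 1 and 3 but higher in mouse 2. There miR-7011-5p had a deposited signal of 7.90 in zone 5 and 9.53 in zone 6. The 5 of them with a RefSeq sequence, which include miR-7011-5p, miR-1982-5p and miR-8101 shown above, were 54.2% to 60.9% G, against a median of 31.8% over tested miRNAs with a sequence. Larger differences came from miRNAs near the limit of detection. Of these miR-7221-5p read 2.97, 0.17 and 2.40 in zone 5 and was undetected in zone 6, at -1.68 ± 0.56 and an adjusted p of 0.391.

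**Figure D4:**
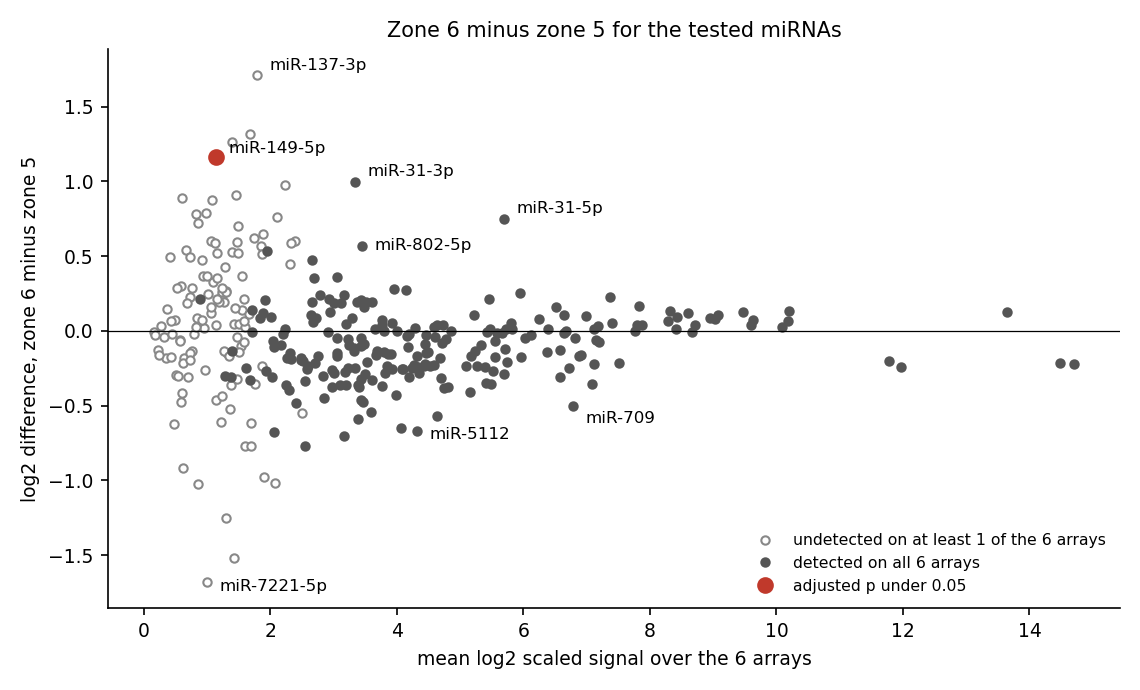
Difference between zones 6 and 5 in log2 against the mean log2 scaled signal over the 6 arrays, with 1 point for each of 339 tested miRNAs. The largest differences in either direction sit at low signal, and among miRNAs with a mean above 5 miR-709 and miR-31-5p stand farthest from 0.

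In 8 miRNAs (2.36%) all zone 6 arrays lay above all zone 5 arrays, and in 16 (4.72%) all lay below. Besides those already given, the higher ones were miR-101c, miR-1839-5p and miR-23a-3p. The difference was higher in all 3 mice for 33 of the 220 miRNAs detected on all 6 arrays (15%) and lower in all 3 for 74 (33.6%). These counts moved with the scaling. They were 60 and 4 on unscaled signals, 56 and 33 after scaling to the summed signal, and 31 and 41 after quantile normalization. The numbers without overlap moved too. Among the same 220, zone 6 lay wholly above in 6 and wholly below in 15 in the main setting. In the order of the other scalings these were 1 and 0, 9 and 2, and 10 and 8. The median over all tested shifted from -0.04 to 0.12, 0.06 and 0 in the same order, and the split at an unadjusted p under 0.05 from 8 higher and 11 lower to 8 and 3, 9 and 4, and 9 and 10. So whether more miRNAs were lower or higher in zone 6 depends on the scaling, and differences are read against that median.

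Base composition moved with the direction of the difference. Of the 33 miRNAs higher in all 3 mice, 31 have a RefSeq sequence, with a median GC content of 40.9%. For 61 of the 74 lower ones it was 62.5%, and for the 286 tested miRNAs with a sequence 55.8%. Among the 3 other scalings the medians were 43.5% to 50% for the higher and 54.5% to 63.6% for the lower miRNAs, the lowest of these resting on 3 sequences. Across 166 miRNAs the difference correlated with GC content at -0.36, -0.21 and -0.35 in mice 1, 2 and 3 (Pearson), a description over miRNAs that share their arrays. In the other neighbouring pairs of zones it ran from -0.54 to 0.58 with both signs. It was above 0 in all 3 mice for zone 3 minus zone 2, zone 4 minus zone 3 and zone 8 minus zone 7. For zone 8 minus zone 7 it was 0.21, 0.20 and 0.35. The median of the mean log2 signal also differed, at 5.45 for the higher miRNAs and 3.89 for the lower ones. The part of base composition in the differences was not tested.

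The bright hepatocyte miRNAs differed little. The most abundant in liver, miR-122-5p, read 13.73, 13.59 and 13.41 in zone 5 and 13.89, 13.63 and 13.58 in zone 6, a difference of 0.13 ± 0.16. All 12 hepatocyte miRNAs of the list were detected, and 0 were called, with differences from -0.14 to 0.14 and a median of 0.07. Above 0 lay 10 of the 12, but 12 on unscaled signals, 11 with the summed signal and 4 after quantile normalization, where the median was 0. In the list were also miR-192-5p at 0.07, miR-148a-3p, a regulator of the LDL receptor, at 0.13 and miR-21a-5p at 0.14. Of the 5 brightest signals the other 4, miR-6366, miR-3963, miR-5100 and miR-3968, had differences of -0.22, -0.22, -0.24 and -0.20, and each was lower in mice 1 and 2 and higher in mouse 3.

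Of the families, 0 of 9 tested let-7 members were called, with 7 above 0 and a median of 0.08. On unscaled signals and with the summed signal 9 let-7 members lay above 0, and 5 after quantile normalization. In the miR-30 family 0 of 9 were called, with 7 above 0 and a median of 0.02. Its member miR-30a-5p was higher in all 3 mice at 0.12 ± 0.14. All 4 tested members of the miR-29 family, which targets collagens and other matrix genes, lay above 0, with a median of 0.15 and 0 called. One of the 4 lay at or below 0 with quantile normalization. The miR-17-92 clusters, known for driving proliferation, had 2 of 9 above 0 and a median of -0.04, equal to that of all tested, but 9 above 0 on unscaled signals, 8 with the summed signal and 7 after quantile normalization. Of 5 tested members of the clusters that hold miR-27a and miR-27b 3 lay above 0, with a median of 0.01. The 4 tested members of miR-103, miR-107 and miR-26 had 3 above 0 and a median of 0.05, and the 5 of miR-15, miR-16 and miR-195 had 4 above 0 and a median of 0.05. For miR-193, miR-365, miR-221 and miR-222 it was 4 of 5 and 0.10. Of the Dlk1-Dio3 cluster, a large imprinted miRNA cluster, 4 of 33 on the array were tested, with 2 above 0 and a median of 0.10, and of miRNAs made without Drosha 4 were tested, with 2 above 0 and a median of -0.09. The number called was 0 in every family and group of this paragraph.

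In the lists by function 0 miRNAs were called. Of 10 tested miRNAs linked to glucose and insulin handling 8 lay above 0, with a median of 0.06, and miR-802-5p alone had an unadjusted p under 0.05. Of 8 linked to cholesterol and lipids 6 lay above 0, with a median of 0.07, and miR-33-5p and miR-802-5p, which is also in the glucose list, had an unadjusted p under 0.05. Of 5 linked to hypoxia 4 lay above 0, with a median of 0.09, but 1 of 5 with quantile normalization. The list of 14 miRNAs named earlier, on these same arrays, as lower towards the portal side had 11 below 0 and a median of -0.33, with 3 at an unadjusted p under 0.05 and 0 called. Zones 5 and 6 were part of that choice, so the count supports nothing further.

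**Figure D5:**
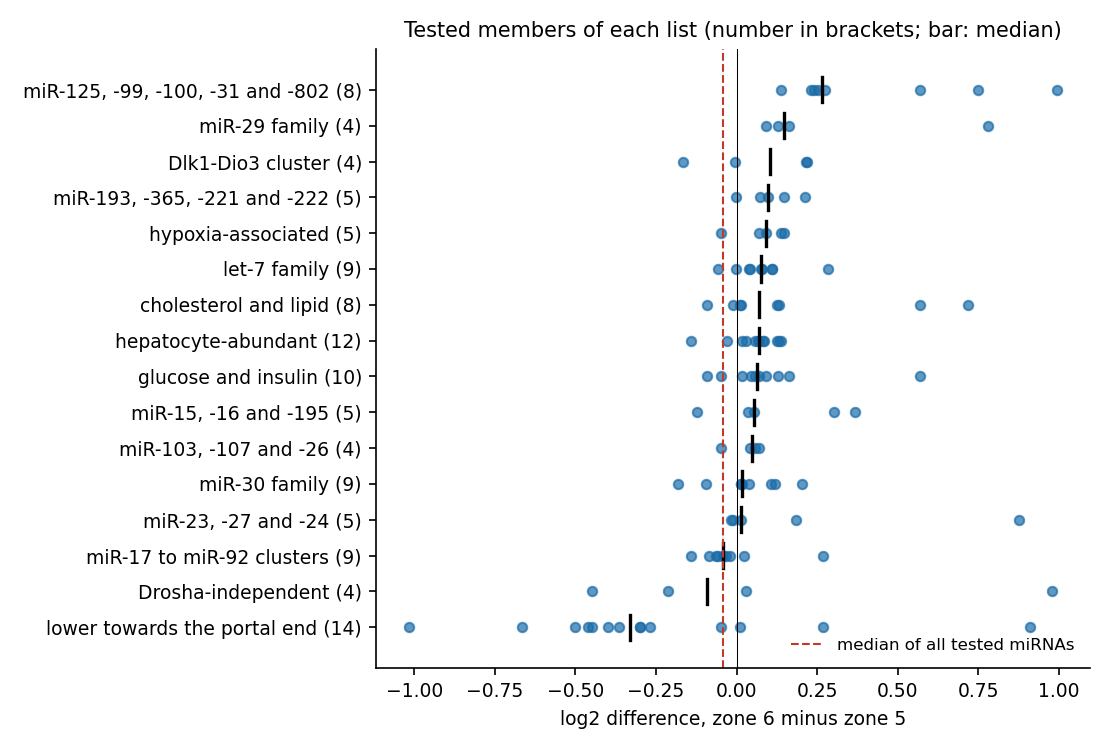
Differences between zones 6 and 5 in log2 for the tested members of each list, with 1 point per miRNA and a bar at the median. Medians lie between -0.33, for the list of miRNAs named earlier as lower towards the portal side, and 0.26, for the list with miR-125, miR-99, miR-100, miR-31 and miR-802.

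Markers of other liver cells were nearly all undetected. Of the leukocyte list 0 of 6 were detected on any of the 6 arrays, of the stellate cell and fibroblast list 0 of 7, of the erythroid list 0 of 4 and of the biliary list 0 of 6. These include miR-142a-3p and miR-223-3p of leukocytes, miR-143-3p of stellate cells, miR-451a of red cells and miR-200c-3p of bile ducts. Of the endothelial pair miR-126a-3p was detected, reading 2.21, 0.17 and 1.03 in zone 5 and 3.51, 1.16 and 0.83 in zone 6. The difference was 0.70 ± 0.39 with an adjusted p of 0.78. The summed deposited signal of that pair, not scaled per array, ran from 0.2 to 3.7 in zone 5 and from 2.36 to 9.63 in zone 6. Its part in the other differences was not tested. Fewer cells that hold a miRNA and less of it per cell cannot be told apart in these bulk samples.

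Zone 6 minus zone 5 was set against zone 2 minus zone 1, which takes the same step of slide column in the other row, and against zone 8 minus zone 7 in the same row. These pairs share no arrays with zones 5 and 6. Neither comparison called a miRNA in limma's fit: 0 of 339 (0%) in each, with 6 higher (1.77%) and 2 lower (0.59%) against zones 2 and 1, and 6 higher (1.77%) and 17 lower (5.01%) against zones 8 and 7, at an unadjusted p under 0.05. The difference of miR-149-5p exceeded that of zones 8 and 7 by 1.32 ± 0.29, with an adjusted p of 0.0972. Against zones 2 and 1 the value was 1.17 ± 0.29, with an adjusted p of 0.295. There miR-149-5p was at the floor on every array, so this repeats its difference between zones 6 and 5. A step of slide column could not show in it. For miR-709 the values were -0.55 ± 0.20 against zones 8 and 7 and -0.43 ± 0.20 against zones 2 and 1, with adjusted p-values of 0.636 and 1. Without mouse 3, 2 differed against zones 2 and 1 and 1 against zones 8 and 7, and without the zone 5 array of mouse 3 alone, 2 in each.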

How the data were processed

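Arrays were 1-colour Agilent mouse miRNA arrays of Cy3-labelled total RNA, as the labels' protocols say. The file per array holds, per the file headers, the total gene signal, a deposited intensity on a linear scale, its error, and the other column used, a detection call of 1 or 0. The submitters' processing notes name Agilent Feature Extraction; its version is not given in the sources used here. Undetected miRNAs have a signal of 0.1. The median error of detected signals was 11.2%.

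After removal of 21 control rows, each array was scaled so that its 75th percentile, over the 198 miRNAs that all 24 arrays detected, equalled the mean of those percentiles. Signals under 1.12 were set to this floor before log2 was taken. A miRNA was tested if at least 6 arrays detected it, which left 339. These were fitted with limma 3.58.1 in R 4.3.3 over all 24 arrays, with a coefficient per zone and mouse as a block, tested two-sided with Benjamini-Hochberg adjustment at 0.05. The same number marks the same animal. Deviations from zone means correlated at 0.678, 0.835 and 0.876 between the zones of a mouse and at -0.667 to 0.11 between mice, values that the centring pulls below 0. The fit was tested on simulated data. No 2 arrays were identical. Mice are separate animals, and differences in level between them are taken out by the block. The p-values measure the spread left between arrays after zone and mouse, pooled over all 24 arrays. For miRNAs undetected in zones 1 to 4 this includes the values at the floor, which do not vary.

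The comparison, the lists and the rule for named miRNAs were chosen with earlier results of these data known. Named were the miRNAs past the threshold, the 10 higher and 10 lower with the smallest p among those detected on all 6 arrays with 1 sign in all 3 mice, those detected on all arrays of 1 zone and none of the other, up to 3 of the brightest tested members of each list, and the 5 brightest. Outside this rule and named after their values were seen are miR-137-3p, miR-33-5p, miR-27a-3p, miR-7221-5p, miR-150-3p, miR-5110, miR-100-5p and miR-1839-5p. So are the other miRNAs named for a change in detection, and the undetected marker and arm miRNAs. RefSeq gave a sequence for 286 of the 339. Alternatives were 3 other scalings, 3 other filters, a lower floor, eBayes with trend and robust, no block, fits on fewer arrays and leaving out each mouse, and, added after seeing the data, undetected values at each array's lowest detected signal and leaving out the zone 5 array of mouse 3. Figures were drawn with matplotlib 3.10.9.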

Additional observations from a re-analysis of the deposited data

Results flagged for a closer look

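Among the control rows, which entered no comparison, dmr_285, dmr_3, dmr_31a and dmr_6 gave a detected signal on 4 of the 6 zone 5 and zone 6 arrays, those of mice 1 and 2 and neither of mouse 3, and on 16 of all 24 arrays. Their log2 differences between zones 6 and 5, on signals that were not scaled, ran from -0.27 to 0.41. Apart from a bright corner row, 5 control rows were detected on all 6 arrays, namely hur_1, hur_2, hur_4, hur_6 and mr_1. Their unscaled signals differed by -0.25 to 0.19, with a median of -0.0016 over controls and mice. In mouse 3 each was lower in zone 6, by -0.02 to -0.25, while mice 1 and 2 had both signs.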

How the results depend on the processing

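The number of miRNAs higher in zone 6 was 1 in the main setting and in 2 others, all miRNAs detected on at least 1 array and the fit with no replicate block, in which miR-149-5p had an adjusted p of 0.0268. Leaving out the pairing by mouse changed no call. The number was 0 without scaling, with the summed signal, with miRNAs detected on all 24 arrays or on all 6 arrays of the pair (both filters leave out miR-149-5p), with a floor 4 times lower (adjusted p 0.0504), with eBayes trend and robust, with the 6 or the 12 arrays of zones 5 to 8 fitted alone, and with undetected values at each array's own lowest detected signal. It was 2 with quantile normalization and 2 without the zone 5 array of mouse 3, namely miR-149-5p and miR-137-3p. Leaving out each mouse gave 0 to 2. Without mouse 3, or without its zone 5 array, all values of these 2 miRNAs in zones 1 to 5 are at the floor and do not vary. The number lower was 0 in every setting run. For the differences of differences, quantile normalization gave 1 against zones 2 and 1 and 1 against zones 8 and 7, leaving out each mouse gave 0 to 2 and 0 to 1, and leaving out the zone 5 array of mouse 3 gave 2 and 2. The cause of these shifts was not tested. Neither difference of differences could be fitted on 6 arrays, nor that against zones 2 and 1 on the 12 arrays. Adjusted p-values of miR-149-5p ran from 1.9e-06 to 1 over 14 settings and those of miR-137-3p from 1.9e-06 to 1, with differences above 0 throughout. Among the named miRNAs not chosen for a small p, values changed sign or became 0 for up to 17 under another setting, quantile normalization. Both miR-149-5p and miR-137-3p have signals near the limit of detection, which limits what their differences can show.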
